A study of Mus musculus with 12 samples.

Results

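H19 and 9 further imprinted growth genes (Igf2, Meg3, Rian, Kcnq1ot1, Cdkn1c, Grb10, Plagl1, Peg3 and Mest) were followed in RNA of mouse small-intestinal epithelium with and without the paired lysine acetyltransferase genes Kat2a and Kat2b. The genes were listed by name, 10 of the 48526 genes in the count files, and each was matched by its Ensembl gene identifier without the version suffix. The group was chosen by the measured rise of H19 after the deletion, in DKO against control libraries. The values of H19 in that contrast are therefore given as a description, with no test.

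The epithelium came from 4 adult female mice aged 3 months. In 2 mice a double knockout (DKO) of Kat2a and Kat2b was induced with tamoxifen at 100 mg/kg, injected into the peritoneum daily for 4 days. The 2 control mice received the ethanol and corn oil solvent alone, so genotype and tamoxifen cannot be told apart. The labels give no further allele of the controls and name no Cre driver. Cells of the proximal part of the small intestine were released with EDTA 2 days after the last injection. The library titles call them whole intestine epithelial cells. Each mouse gave an input library of total RNA and 2 pulldown libraries made with J2 and K1, antibodies that bind double-stranded RNA. The 12 libraries form 6 groups of 2, and every p-value rests on the spread between 2 mice per genotype.

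In genomic imprinting 1 of the parental copies of a gene is silenced by marks set in the germ line. Many imprinted genes act on fetal growth: those expressed from the paternal copy tend to promote it and those from the maternal copy tend to restrain it. H19 is a maternally expressed noncoding RNA that shares enhancers with its neighbour Igf2, a paternally expressed growth factor, and an insulator bound by CTCF separates them on the maternal copy. Both are abundant in fetal tissues, the gut included, and are largely switched off after birth. The libraries do not distinguish parental copies, so only total levels are described.

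On GRCm38, with gene models of GENCODE M21, H19 lies at chr7:142575529-142578143 on the minus strand and Igf2 at chr7:142650766-142666816 on the same strand. On the same chromosome are Kcnq1ot1 (chr7:143203458-143296549), Cdkn1c (chr7:143458339-143461050) and Peg3 (chr7:6703892-6730431). Meg3 (chr12:109541001-109571726) and Rian (chr12:109603940-109661716) form the maternally expressed part of the Dlk1-Dio3 domain. Grb10 lies at chr11:11930508-12038683, Plagl1 at chr10:13060504-13131694 and Mest at chr6:30723547-30748465.

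Because both antibodies select RNA by its double-stranded parts, microRNA hairpins inside H19, Igf2 and Meg3, the 3 members with the largest pulldown values relative to control or input, are shown, 1 for each, taken from RefSeq on GRCm38.p6, 5′ to 3′, with the mature arms in capitals.
Mir675, in an exon of H19 (chr7:142577064-142577147): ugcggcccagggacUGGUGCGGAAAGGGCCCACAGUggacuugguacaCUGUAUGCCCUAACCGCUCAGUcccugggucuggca
Mir483, in an intron of Igf2 (chr7:142654924-142654996): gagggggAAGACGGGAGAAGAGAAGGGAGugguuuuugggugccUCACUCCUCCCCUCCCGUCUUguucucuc
Mir770, in an exon of Meg3 (chr12:109563692-109563785): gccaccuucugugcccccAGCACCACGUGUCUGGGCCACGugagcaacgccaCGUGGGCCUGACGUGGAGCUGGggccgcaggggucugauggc

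Meg3 also holds Mir1906-1 in an exon (chr12:109544541-109544620). RNAfold paired 64 of the 84 bases of the Mir675 hairpin, 54 of the 73 of Mir483 and 74 of the 94 of Mir770 in their predicted folds. The rows of these 3 hairpins and of Mir1906-1 held 0 counts in all 12 libraries. They give no level of the mature microRNAs and do not show whether reads of the host exons covered the hairpins. Whether the hairpins have a part in the pulldown values was not tested. Rian hosts 17 annotated small RNAs, 4 of them microRNAs, and 1 of the 17 had a count, a single read.

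Input libraries held 10307281 to 11474107 counts in genes and control pulldowns 13308021 to 16139531. The DKO pulldowns held fewer, 5826361 and 2691285 (J2) and 5559033 and 2220291 (K1), and there 15.8% to 46.7% of the listed reads aligned to several places, against 5.54% to 8.05% elsewhere. Kat2a had 17.1 ± 0.872 CPM in control input and 8.94 ± 2.74 CPM in DKO input (gene counts at a common library size, scaled by TMM over the 12 libraries; SD, n = 2), and Kat2b had 26.6 ± 2.72 and 9.11 ± 1.03 CPM. For both genes the DKO values lay below the control values in each of the 3 kinds of library. All 10 epithelial markers had counts in every library, with a summed level of 7084 to 8627 CPM in input. In input, DKO against control, 7 of 7 tested fetal-like and regenerative markers of 11 listed were called higher (edgeR, adjusted p under 0.05), and 5 of 10 stem cell markers lower and 1 (Cd44) higher. Of the fetal-like calls, Anxa10 (0 and 0 counts in control, 383 and 229 in DKO) passed the low-count filter only through DKO libraries. The fetal-like count is therefore not independent of the filter. Called lower were 5 of 12 tested leukocyte markers. Enteroendocrine markers gave 5 higher calls and 1 lower of 10, and epithelial markers 1 of each (Krt18 higher, Fabp2 lower). Higher were Lyve1 of 4 tested endothelial markers, Ret and Tubb3 of 3 tested enteric neuron and glia markers, and Pdgfrb of 4 tested stromal markers. Several of these genes were singled out after their values were seen. Over all genes 35.9% were called in this comparison.

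H19 was close to absent from control epithelium and present in every DKO library. In input it had 1 and 0 counts in the control mice and 14 and 24 in the DKO mice, or 0.0796 and 0 CPM against 1.17 and 1.76 CPM. Both control libraries were at or under 3 counts, the level treated as the limit of detection, so DKO was at least 6.44-fold higher. K1 libraries held 0 and 0 counts against 10 and 9, so DKO was higher there at least 15.8-fold. In J2 libraries they were 3 and 5 against 39 and 4, or 0.206 and 0.405 CPM against 9.94 and 1.23 CPM, and the fitted log2 difference was 4.19 (SE 1.05). DKO and control values did not overlap in any of the 3 kinds of library. Small annotated RNAs cover 9.15% of the exonic bases of H19, and none of them had a count.

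The level of H19 in the DKO J2 libraries rested on 1 mouse. Relative to the input of the same mouse, H19 in J2 was 8.52-fold higher in DKO mouse 1 and 0.699-fold in DKO mouse 2. In K1 the ratios were 2.03 and 2.31. Against input over both DKO mice the log2 fold change was 1.98 for J2 (SE 0.76, adjusted p 0.0894) and 0.96 for K1 (SE 0.55, adjusted p 0.201), and neither passed the threshold of 0.05. These tests, like all below, are edgeR quasi-likelihood tests with Benjamini-Hochberg adjustment over all genes, and they share the DKO input libraries with the contrast that led to the choice of H19. Without DKO mouse 1 the J2 value was -0.62, and over its 10 alternatives the adjusted p ran from 0.00318 to 0.559. In control, J2 had 3 and 5 counts against 1 and 0 in input (adjusted p 0.276), too few for a fold, and for K1 both groups were at the limit of detection. Summed stromal markers, a class in which H19 is known to be expressed, were 241 and 41.3 CPM in the DKO J2 libraries of mice 1 and 2 and 11.8 and 32.5 CPM in control J2. In input they were 16.5 and 11.4 CPM in DKO and 7.003 and 12.6 CPM in control, overlapping between genotypes, with 1 to 3 of the 15 markers at 0. The collagen gene Col1a1 had 20 and 14 counts in DKO input and 1 and 23 in control input. In K1 libraries the stromal sum was 265 and 124 CPM in DKO and 12.3 and 57.2 CPM in control. Other marker sums that were higher in both DKO inputs than in both control inputs were the fetal-like one (71.7 and 66.3 CPM in control, 350 and 341 CPM in DKO), the enteroendocrine one (226 and 247 against 370 and 274 CPM), the endothelial one (6.76 and 9.66 against 27.4 and 18.0 CPM, 1 to 4 of 10 markers at 0) and that of enteric neurons and glia (6.68 and 5.05 against 31.9 and 28.8 CPM, 3 to 4 of 10 at 0). The part of these cells or programmes in the values of H19, Igf2 and Meg3 was not tested. Fewer cells of a type and less RNA per cell cannot be told apart in these bulk libraries.

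**Figure D1:**
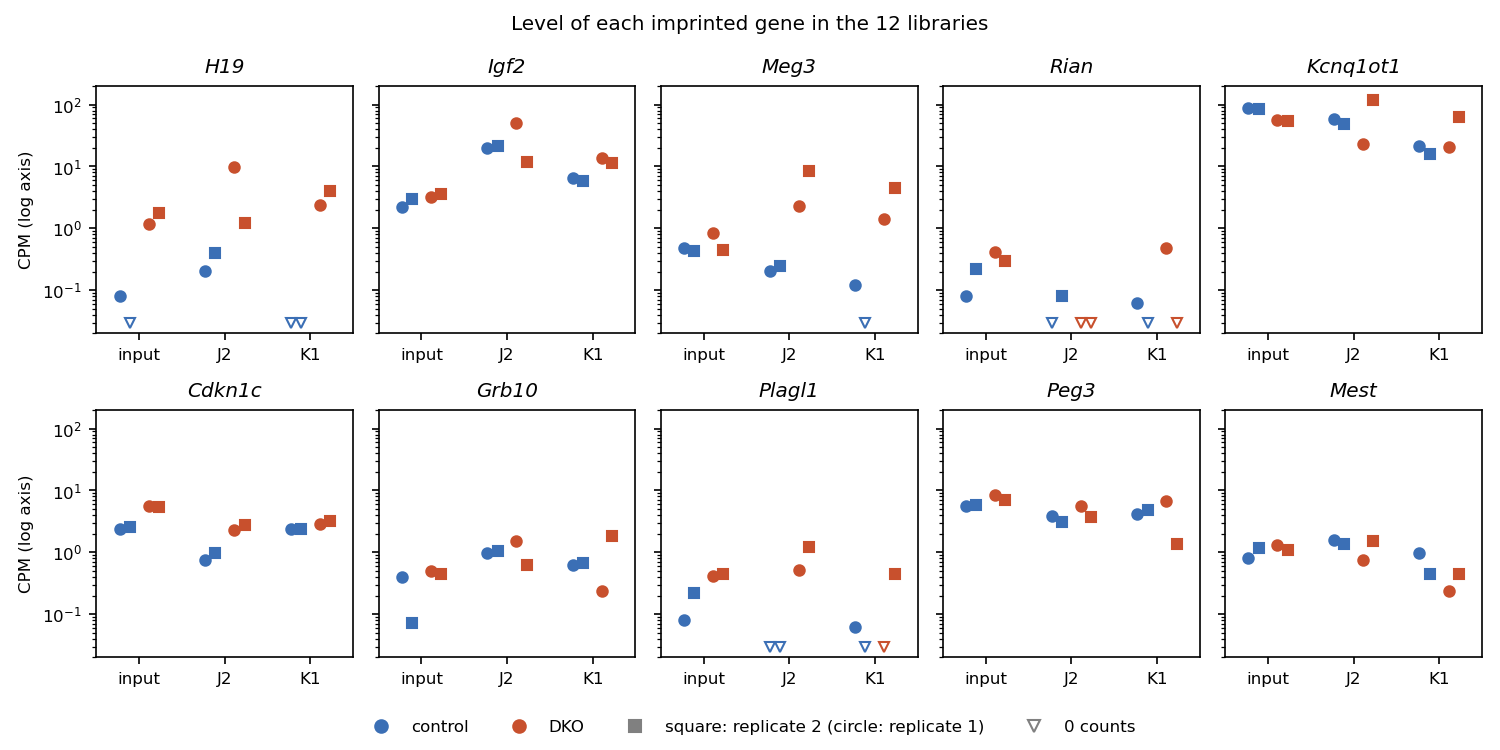
Level of each of the 10 genes in each library, in CPM on a log axis, for control (blue) and DKO (red) mice, with circles for mouse 1, squares for mouse 2 and open triangles for 0 counts. The DKO points of H19 lie above its control points in input, J2 and K1, while those of Igf2 in J2 lie on both sides of control.

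Igf2, the growth factor gene next to H19, was present at a low level in both genotypes and was the only member called above input with both antibodies in both genotypes. Control inputs had 28 and 41 counts and DKO inputs 38 and 48, or 2.59 ± 0.514 against 3.35 ± 0.254 CPM, a log2 difference of 0.41 (SE 0.28, adjusted p 0.290). The 2 input groups did not overlap, but the difference did not pass the test. K1 libraries had 107 and 79 counts in the control mice against 57 and 25 in the DKO mice, which after scaling were 6.24 ± 0.504 against 12.4 ± 1.57 CPM. Igf2 rose in DKO K1 by a log2 fold change of 1.18 (SE 0.35, adjusted p 0.0440). That call held under 3 of 11 alternatives, with adjusted p from 0.00704 to 0.461, and it was lost without TMM, with DESeq2, and without control mouse 1 or control mouse 2. In J2, Igf2 had 19.7 and 21.1 CPM in control and 50.0 and 11.7 CPM in DKO. The control libraries were close together, 1 DKO library lay above them and 1 below, and the log2 difference was 0.61 (SE 0.63, adjusted p 0.515). Without DKO mouse 1 it was -0.72, and without DKO mouse 2 it was 1.35.

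Igf2 was higher in both pulldowns than in input in both genotypes. J2 exceeded the input of the same mouse 8.84- and 7.15-fold in control and 15.8- and 3.32-fold in DKO, and the fitted log2 fold changes were 2.97 (SE 0.59, adjusted p 0.00893) and 3.23 (SE 0.59, adjusted p 0.00924). K1 exceeded input 2.96- and 1.99-fold in control and 4.27- and 3.21-fold in DKO. The log2 fold changes were 1.18 (SE 0.29, adjusted p 0.00885) and 1.82 (SE 0.30, adjusted p 0.00194). The K1 call in DKO held under all 11 alternatives, with adjusted p of 0.0284 or lower. The J2 and K1 calls in control were lost without either control mouse, where control rests on 1 mouse. For J2 no gene could keep a call of that comparison in those fits, so that loss says nothing about Igf2. The J2 call in DKO did not hold in all alternatives. With all 12 libraries in a single fit the K1 call in control was lost as well, so that it held under 8 of 11 alternatives. Whether enrichment differed between genotypes was tested directly: the DKO minus control difference was 0.26 for J2 (SE 0.80, adjusted p 0.864) and 0.63 for K1 (SE 0.42, adjusted p 0.401), neither past the threshold. The antisense gene Igf2os, which overlaps 1.71% of the exonic bases of Igf2, had 0 to 10 counts per library.

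Meg3, a maternally expressed noncoding RNA with growth-restraining activity in cell culture, had more counts in the DKO than in the control libraries of both pulldowns, and most of them in DKO mouse 2. In input it had 6 and 6 counts in control input against 10 and 6 in DKO input, too few to be tested, and the groups overlapped. In J2 the counts were 3 and 3 against 9 and 27, or 0.206 and 0.243 CPM against 2.29 and 8.33 CPM. Control held 3 counts in each mouse, which is the limit of detection itself. Meg3 was 23.7-fold higher in DKO J2 (adjusted p 0.0398), an observed ratio and not a lower bound. The ratio was 10.2-fold without DKO mouse 2 and 37.1-fold without DKO mouse 1. In K1 Meg3 had 2 and 0 counts against 6 and 10, at least 14.6-fold higher in DKO (adjusted p 0.0151). That bound was 6.98-fold without DKO mouse 2 and 22.2-fold without DKO mouse 1. Meg3 passed the low-count filter only through the DKO pulldown libraries, the group in which it was high, so these 2 calls are not independent of the filter. Without a filter the adjusted p was 1.89e-06 in J2 and 5.05e-05 in K1. These values rest on the same few control counts and are no separate support for the calls. The J2 call was lost without TMM (adjusted p 0.0652) and without either control mouse (0.241 and 0.217). The K1 call was lost without control mouse 2, where the log2 value was 4.53. In K1 only 8 alternatives could test Meg3, since it failed the filter with thinned libraries and without either DKO mouse. In J2 10 could, and it failed the filter with thinned libraries. The alternatives gave adjusted p of 1.89e-06 to 0.241 (J2) and 5.05e-05 to 0.163 (K1).

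Against input, Meg3 rose in DKO J2 by a log2 fold change of 3.05 (SE 0.65, adjusted p 0.0141), with same-mouse ratios of 2.75 and 18.9. Here too it passed the filter only through the DKO J2 libraries, and the value without a filter (2.81, adjusted p 1.65e-05) is no separate support. Without DKO mouse 2 the value was 1.48 and the call was lost (adjusted p 0.107). In DKO K1 the ratios were 1.71 and 10.3 and the log2 fold change was 1.97 (SE 0.71, adjusted p 0.0534). In control, Meg3 had an observed level 2.03-fold lower in J2 than in input (adjusted p 0.431) and at least 2.23-fold lower in K1 (adjusted p 0.0699). The difference of enrichment between genotypes was 4.03 on the log2 scale for J2 (SE 1.102, adjusted p 0.0815) and 4.61 for K1 (SE 1.26, adjusted p 0.0613). With the mouse as a replicate block the K1 difference was 4.66 and passed (adjusted p 0.0437), and DESeq2 called both (adjusted p 0.0165 and 0.0247). Meg3 passed the filter of the K1 fit only through the DKO K1 libraries. The K1 tests and both differences are therefore not independent of the filter either. Without DKO mouse 2 the differences were 2.45 (adjusted p 0.0840) and 3.32 (0.148). Because the control pulldowns were at the limit of detection, these fitted values are no bounds. High Meg3 was in DKO mouse 2, the mouse in which H19, Igf2 and the summed stromal markers of the J2 libraries were lower. Rian, the neighbouring host RNA of small nucleolar RNAs, had 0 to 5 counts in every library and was not tested. Input held 1 and 3 counts of it in the control mice and 5 and 4 in the DKO mice, which were at least 1.56-fold higher.

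**Figure D2:**
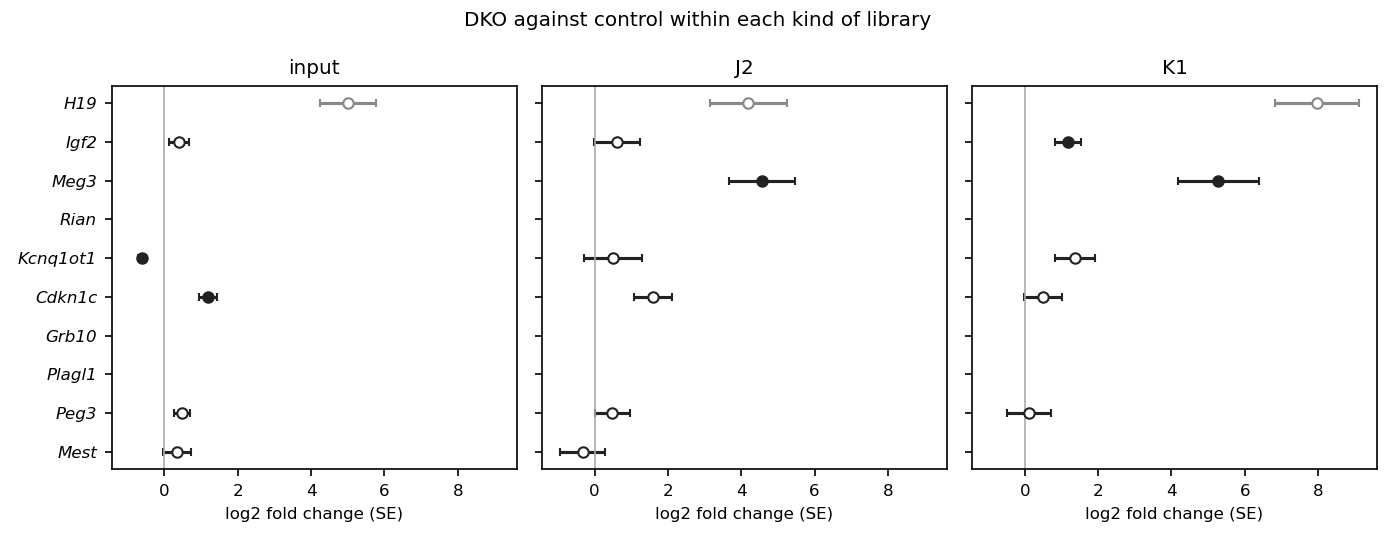
Fitted log2 fold change of DKO against control with its SE, in input, J2 and K1 libraries. Filled points have an adjusted p under 0.05, open points do not, H19 is grey because it was chosen for this contrast, and genes without a point had too few counts; where control is at the limit of detection (H19 in input and K1, Meg3) the fitted value is no bound.

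Kcnq1ot1 and Cdkn1c belong to a domain in which the paternally expressed Kcnq1ot1 RNA silences neighbouring genes in cis, and Cdkn1c encodes p57, an inhibitor of cyclin-dependent kinases. In input, Kcnq1ot1 was lower and Cdkn1c higher in DKO. Kcnq1ot1 had 87.4 and 85.9 CPM in control and 56.5 and 54.3 CPM in DKO, a log2 fold change of -0.61 (SE 0.11, adjusted p 0.00570). Cdkn1c had 2.39 and 2.59 CPM in control and 5.67 and 5.44 CPM in DKO, a log2 fold change of 1.19 (SE 0.24, adjusted p 0.00790). For both genes the mice of a genotype lay close together and the genotypes were well apart. The Kcnq1ot1 call was lost in a fit of all 12 libraries (adjusted p 0.590) and the Cdkn1c call with all libraries thinned to the shallowest (adjusted p 0.0870), and both held under the other 10 of 11 alternatives. Of the exonic bases of Kcnq1ot1, 99.9% lie in introns of Kcnq1 on the opposite strand. The counts ignore strand, so reads of Kcnq1 introns and of Kcnq1ot1 cannot be told apart. Kcnq1 itself had 689 and 796 counts in control input and 471 and 564 in DKO (log2 fold change -0.43, adjusted p 0.0225).

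In pulldowns Kcnq1ot1 differed more between the 2 DKO mice than between genotypes. J2 levels were 58.5 and 49.1 CPM in control and 22.7 and 117 CPM in DKO, a log2 difference of 0.49 (SE 0.78, adjusted p 0.678) that was -1.19 without DKO mouse 2 and 1.20 without DKO mouse 1. K1 levels were 21.2 and 16.0 CPM in control and 20.9 and 62.5 CPM in DKO, a log2 difference of 1.37 (SE 0.53, adjusted p 0.0961) that DESeq2 called (adjusted p 0.0321, range over 11 alternatives 0.00139 to 0.388). Within control, Kcnq1ot1 fell in K1 against input by 2.29 on the log2 scale (SE 0.39, adjusted p 0.00156). That call was lost without control mouse 1 (adjusted p 0.0665) or control mouse 2 (0.0932). In DKO the K1 value was -0.53 (SE 0.39, adjusted p 0.316). The control mice had same-mouse K1 to input ratios of 0.243 and 0.186 and the DKO mice 0.370 and 1.15, without overlap. The difference between genotypes was 1.76 (SE 0.55, adjusted p 0.0888), and with the mouse as a replicate block it was 1.64 and passed (adjusted p 0.0188). For J2 against input the log2 fold changes were -0.68 in control (SE 0.59, adjusted p 0.411) and 0.36 in DKO (SE 0.59, adjusted p 0.673), and their difference was 1.05 (SE 0.83, adjusted p 0.455).

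Cdkn1c was less abundant in J2 than in input. The same-mouse ratios were 0.316 and 0.374 in control, where the log2 fold change was -1.52 (SE 0.35, adjusted p 0.0158), and 0.405 and 0.510 in DKO, where it was -1.11 (SE 0.36, adjusted p 0.0538). The control call was lost with thinned libraries (adjusted p 0.160). It was also lost without control mouse 1 or control mouse 2, where control rests on 1 mouse. No gene could keep a call of this comparison in those fits, so that loss says nothing about Cdkn1c. For K1 the control mice had ratios of 1.01 and 0.919 and the DKO mice 0.503 and 0.583, with log2 fold changes of -0.14 (SE 0.31, adjusted p 0.757) and -0.98 (SE 0.36, adjusted p 0.0532). Neither difference between genotypes passed, at 0.41 for J2 (SE 0.50, adjusted p 0.635) and -0.85 for K1 (SE 0.47, adjusted p 0.313). Between genotypes within J2, Cdkn1c had 0.755 and 0.971 CPM in control and 2.29 and 2.78 CPM in DKO, a log2 difference of 1.60 (SE 0.52, adjusted p 0.0939). It passed the filter of that fit only through the DKO libraries, where it was higher, so this value is not independent of the filter. Gm44732, an antisense gene over 30.7% of the exonic bases of Cdkn1c, had 0 counts in every library.

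The remaining members encode an adaptor protein that restrains insulin and IGF signalling (Grb10), zinc finger proteins (Plagl1 and Peg3) and a hydrolase-like protein (Mest). Grb10 had 5 and 1 counts in control input and 6 and 6 in DKO input, and 14 and 13 in control J2. It rose in control J2 against input by a log2 fold change of 2.09 (SE 0.66, adjusted p 0.0457), having passed the filter only through J2 libraries. The call was lost with the mouse as a replicate block (adjusted p 0.0743), without TMM and with DESeq2, and 4 of 10 alternatives kept it. It was also lost without either control mouse, where control rests on 1 mouse and no gene could keep a call of this comparison. In DKO J2 Grb10 had 6 and 2 counts, and the value was 1.24 (SE 0.74, adjusted p 0.238). Peg3 had 5.65 and 5.77 CPM in control input and 8.59 and 6.91 CPM in DKO, a log2 difference of 0.48 (SE 0.22, adjusted p 0.126). Without DKO mouse 2 it was 0.62 and passed (adjusted p 0.0450). In pulldowns its values against input ran from -0.86 to -0.42, none past the threshold.

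Mest had 10 and 16 counts in control input and 16 and 15 in DKO, with overlapping groups and a log2 difference of 0.34 (SE 0.38, adjusted p 0.508). K1 libraries held 16 and 6 counts of it in the control mice and 1 and 1 in the DKO mice, where K1 against input did not pass (adjusted p 0.0989). The oppositely oriented gene Copg2, itself imprinted, covers 23.1% of the exonic bases of Mest, and reads of both in that stretch cannot be told apart. Plagl1 had 1 and 3 counts in control input and 5 and 6 in DKO (a fold of at least 1.89), and 0 and 0 against 2 and 4 in J2 (at least 3.89, and 2.27 without DKO mouse 2). It was not tested in any comparison.

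**Figure D3:**
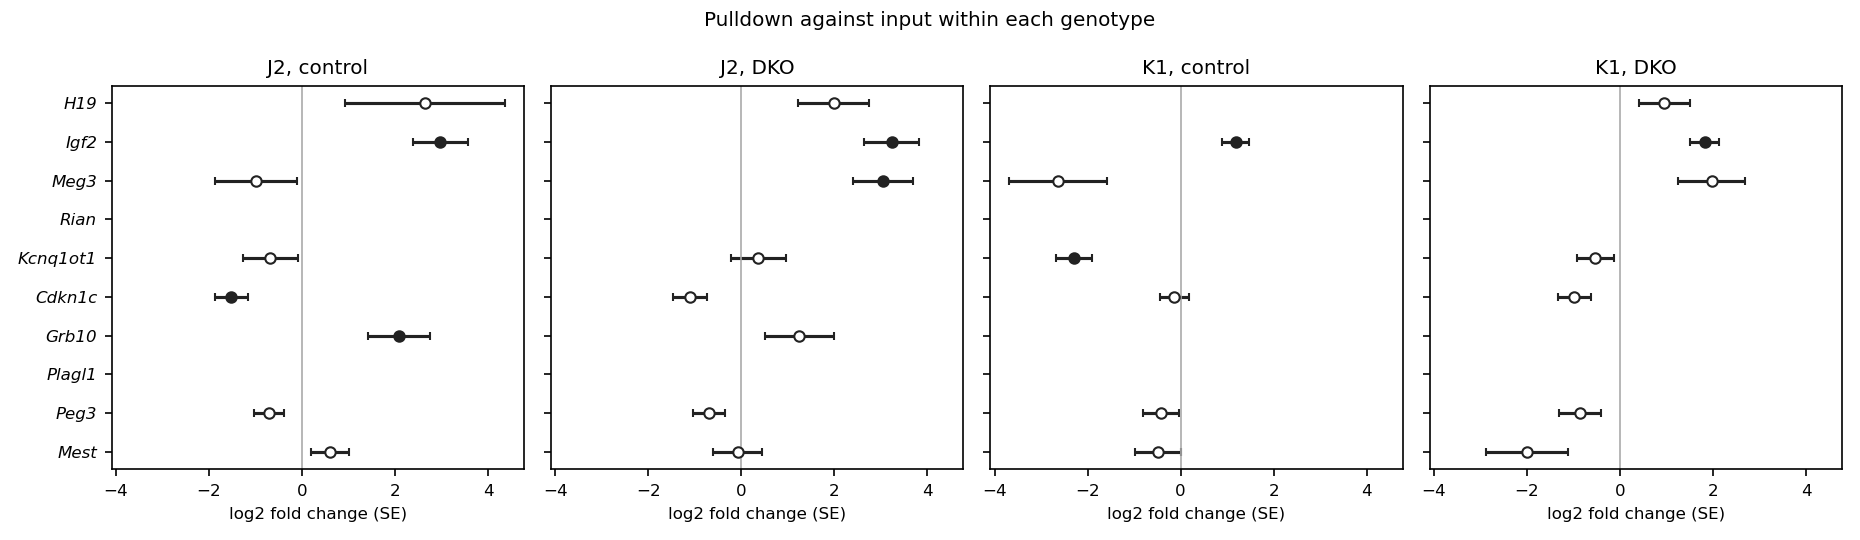
Fitted log2 fold change of each pulldown against input with its SE, in control and DKO mice. Filled points (adjusted p under 0.05) are Igf2 in all 4 panels, Meg3 for J2 in DKO, Grb10 and Cdkn1c for J2 in control and Kcnq1ot1 for K1 in control; where a group is at the limit of detection (H19 and Meg3 in control, Mest for K1 in DKO) the fitted value is no bound.

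Counted over the members other than H19, 5 of the 9 had enough counts in input and 2 were called between genotypes, Cdkn1c higher and Kcnq1ot1 lower, where 35.9% of all 15088 genes tested were called. In J2, 6 were tested and 1 was called (Meg3, higher), where 12.2% of all genes were. In K1, 5 were tested and 2 were called (Meg3 and Igf2, higher), where 27.1% of all genes were. Meg3 in these pulldowns, and Cdkn1c in J2, passed the filter only through DKO libraries, where they were high, so nothing is read from these counts. Against input in control, 3 of 8 tested members were called for J2 (29.8% of all genes) and 2 of 7 for K1 (39.8%). In DKO they were 2 of 8 for J2 (25.7%) and 1 of 7 for K1 (35.6%). The J2 calls of Grb10 in control and Meg3 in DKO likewise concern genes that passed only through J2 libraries. The shares lie near those of all genes, with counts too small to separate them. For the difference of enrichment edgeR called 0 of 7 members for J2 (2.71% of all genes) and 0 of 6 for K1 (5.47%). At an unadjusted p under 0.05 there were 1 and 2, and DESeq2 called 1 and 2. The comparisons share libraries: both differences use the same inputs, so the members' J2 and K1 values are not independent.

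Per kilobase of exon not shared with another gene, Cdkn1c had the highest mean level in control input, 1.76 CPM per kb, followed by Kcnq1ot1 at 0.942, Igf2 at 0.461, Peg3 at 0.428 and Mest at 0.321. Meg3, Grb10, Plagl1, H19 and Rian lay between 0.00840 and 0.0274 CPM per kb. In DKO input Cdkn1c was again highest, at 3.93 CPM per kb. H19 came next at 0.656, beside Kcnq1ot1 at 0.602, Igf2 at 0.595 and Peg3 at 0.582, and these 4 were closer together than the 2 DKO values of H19. In DKO J2 the order was Igf2 at 5.48 and H19 at 2.5004 CPM per kb, ahead of Cdkn1c at 1.79, but the spread between the DKO mice for Igf2 and H19 was about as large as their means.

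Other genes known to be imprinted, some of them only in certain tissues, went in both directions in input. Of 52 listed genes 26 were tested and 11 called, 5 higher and 6 lower in DKO, where 35.9% of all genes were called, with a median log2 fold change of -0.16 against -0.00097 for all genes. Among those named by the rule, Ppp1r9a, which encodes the actin-binding protein neurabin, fell from 15.2 and 14.4 CPM to 4.42 and 5.66 CPM (log2 fold change -1.51, SE 0.20, adjusted p 0.00148). Ddc, which encodes aromatic amino acid decarboxylase, fell from 170 and 211 CPM to 72.2 and 68.7 CPM (-1.40, SE 0.14, adjusted p 5.09e-04). Inpp5f, a phosphoinositide phosphatase gene, rose from 6.13 and 8.51 CPM to 16.7 and 12.3 CPM (1.02, SE 0.24, adjusted p 0.0144). In the Kcnq1ot1 domain, Phlda2, a maternally expressed gene that restrains placental growth, had 7 and 8 counts in control and 23 and 43 in DKO (2.19, SE 0.41, adjusted p 0.00586), and Osbpl5 rose by 0.76 (SE 0.23, adjusted p 0.0383). Ascl2, of the same domain and also a stem cell marker, fell by 1.99 (SE 0.37, adjusted p 0.00534). Kcnq1, of the same domain, was called lower as given above (-0.43, SE 0.11, adjusted p 0.0225). The domain's tested genes Tssc4, Nap1l4 and Slc22a18 did not pass, with values of 0.56, -0.16 and -0.05. These genes of the domain were singled out after their values were seen. In J2, 1 of 26 tested was called (Ube3a, lower), where 12.2% of all genes were, and in K1 7 of 25, 4 higher and 3 lower, where 27.1% were.

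**Figure D4:**
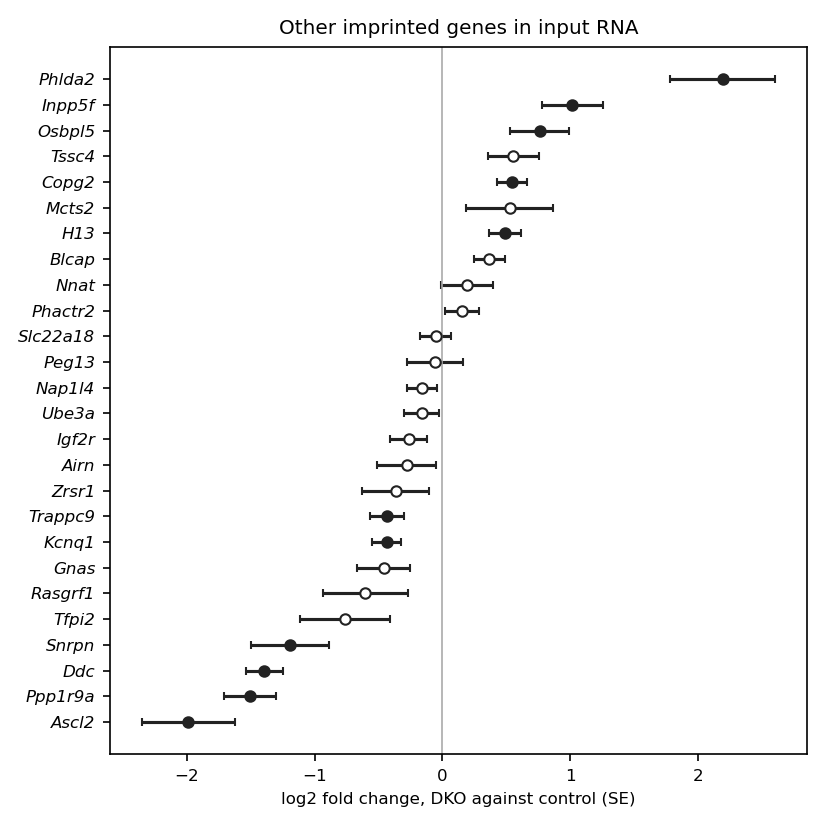
Fitted log2 fold change of DKO against control in input, with its SE, for the 26 tested imprinted genes that are not members. Filled points have an adjusted p under 0.05: 5 lie to the right (higher in DKO) and 6 to the left.

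Of 20 listed genes of the IGF pathway 8 had enough counts in input to be tested, and 3 were called, 1 higher and 2 lower in DKO, a share near the 35.9% of all genes. The median log2 fold change was -0.21. Igf1r, the receptor through which IGF1 and IGF2 signal, fell from 18.8 and 15.4 CPM to 4.17 and 4.70 CPM (log2 fold change -1.90, SE 0.20, adjusted p 5.73e-04). Insr, the insulin receptor, fell from 136 and 148 CPM to 91.3 and 83.5 CPM (-0.66, SE 0.12, adjusted p 0.00567). Igf2r, the receptor that clears IGF2, did not pass (-0.26, SE 0.15, adjusted p 0.193). Igf2bp2, which encodes an RNA-binding protein of Igf2 messenger RNA, rose from 42.7 and 37.6 CPM to 79.1 and 63.4 CPM (0.87, SE 0.15, adjusted p 0.00388). Igf1r was also called lower in J2 (-2.12, SE 0.37, adjusted p 0.0346) and in K1 (-2.95, SE 0.38, adjusted p 0.00354). In these pulldowns 2 of 9 and 3 of 10 tested genes were called, where 12.2% and 27.1% of all genes were.

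Genes listed as regulators of imprints or of H19, whose actions differ from each other, were lower where they changed in input. Of 20 listed genes 17 were tested and 9 were called, all lower in DKO, where 35.9% of all genes were called in either direction. The median log2 fold change was -0.58, against -0.00097 for all genes. Uhrf1, which recruits the maintenance methyltransferase to replicated DNA, fell from 35.8 and 33.2 CPM to 8.92 and 12.9 CPM (-1.61, SE 0.19, adjusted p 8.63e-04). Dnmt1, that methyltransferase, fell from 67.4 and 61.1 CPM to 24.1 and 33.4 CPM (-1.12, SE 0.17, adjusted p 0.00248). Trim28, a corepressor needed to keep imprints in the embryo, fell from 77.6 and 81.5 CPM to 34.3 and 42.6 CPM (-1.01, SE 0.14, adjusted p 0.00175). Tet1, Tet3, Dnmt3a, Mbd3, Zbtb20 and Zhx2 were the other calls. The last 2 are repressors of H19 or of other fetal genes in the liver, and they fell by 0.58 (SE 0.14, adjusted p 0.0158) and 0.75 (SE 0.12, adjusted p 0.00356). Ctcf, whose protein binds the insulator between Igf2 and H19, had a value of -0.03 (SE 0.11, adjusted p 0.835). Zfp57, which guides Trim28 to imprinted loci, had 0 and 0 counts in control input and 5 and 2 in DKO. In J2 2 and in K1 7 of 17 tested genes were called, all lower but Arid4b in K1, where 12.2% and 27.1% of all genes were called. Stem cell markers fell beside this list, 5 of 10 in input, and their part in it was not tested. DNA methylation was not measured in these libraries.

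Over the 12 libraries, the genes whose log2 CPM followed H19 most closely among 9378 ranked were Vwa7 (Pearson r 0.957), Myd88 (0.945), Tbrg1 (0.942), Slfn10-ps (0.939) and Oas3 (0.937). Their input counts were 39 and 27 against 189 and 177 for Vwa7 and 21 and 14 against 266 and 208 for Slfn10-ps, control before DKO. The 12 points share 4 mice and differ in depth and in kind of library, so the correlations describe only these libraries. H19 had 0 to 5 counts in the control libraries, so its profile largely repeats the DKO rise by which it was chosen. The ranking therefore reuses that contrast and is no test.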

How the data were processed

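Each library has 1 deposited file, in which the authors gave read counts of genes without regard to strand, per the labels. Libraries were primed with random hexamers, kept strand and carried molecular identifiers, per the labels' protocols. The submitters' processing notes name STAR 2.7.10b, UMI-tools 1.1.4, HTSeq 2.0.2, DESeq2 1.40.1 and edgeR 3.42.2 and the builds mm10 and GRCm38.p4, with no order. The annotation release and the counting mode are not given in the sources used here. Rows that name no gene were left out of library sizes: reads outside genes (6.76% to 27.0% of those listed), ambiguous ones and those with several alignments.

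Symbols and coordinates came from GENCODE M21 (48144 of 48526 identifiers matched without the version, 40692 with it). Tests used the quasi-likelihood method of edgeR 4.0.16 under R 4.3.3 (TMM, filterByExpr with a count minimum of 10, adjusted p under 0.05). DKO was compared with control in fits of 4 libraries, and pulldown with input, and the difference of enrichment, in fits of 8. The main fits of 8 left out the pairing of input and pulldown libraries within a mouse, which only the replicate block alternative included. A group with at most 3 counts in both libraries was taken as at the limit of detection, and folds against it are bounds computed with 3 counts per library (0.185 to 1.36 CPM). Bounds take the mean of the other group as exact, so they cover neither its counting error nor the spread between mice. Where a group held 3 counts in each library, the bound equals the observed ratio. The scripts were tested on simulated counts. Members and lists were chosen with earlier results of these data known. Named were the 10 members, Kat2a and Kat2b, at most 3 genes per list with the largest change in input among those called, with a mean of at least 50 counts and no overlap between genotypes, the 5 genes most correlated with H19, and genes overlapping a member.

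Input and pulldown libraries of a number came from the same mouse, per the labels, and their replicate differences correlated within a genotype (r 0.208 to 0.494 over 16582 genes). Same-numbered control and DKO mice share only the number.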

Additional observations from a re-analysis of the deposited data

How the results depend on the processing

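Each alternative changed 1 choice: scaling (no TMM, or DESeq2 size factors in edgeR), DESeq2, no low-count filter, all 12 libraries in a single fit, thinning every library to 2220291 counts, the replicate block, and leaving out each mouse. The number of members called, main value first, was the same under alternatives not named here. Input, DKO against control: 2, but 1 with all 12 libraries or thinned and 2 to 3 without a mouse (3, with Peg3, without DKO mouse 2). J2: 1, but 0 without TMM or thinned, 2 without the filter or with all 12 libraries, and 0 to 4 without a mouse. K1: 2, but 1 without TMM or with all 12 libraries, 0 thinned, and 0 to 2 without a mouse. J2 against input in control: 3, but 2 without TMM, with DESeq2, with all 12 libraries or with the replicate block, 1 thinned and 0 to 5 without a mouse. J2 against input in DKO: 2, but 3 with DESeq2 size factors or all 12 libraries, 4 without the filter, 1 thinned and 0 to 4 without a mouse. K1 against input in control: 2, but 3 without the filter, 1 with all 12 libraries and 0 to 3 without a mouse. K1 against input in DKO: 1, but 3 without TMM, 2 without the filter and 1 to 3 without a mouse. Difference for J2: 0, but 1 with DESeq2 or without the filter and 0 to 3 without a mouse. Difference for K1: 0, but 2 with DESeq2, without the filter or with the mouse as a replicate block, and 0 to 3 without a mouse. Calls over all genes moved under these alternatives as well. In J2 between genotypes they were 1606 of 13181 tested, but 1364 of 13181 without TMM and 1222 of 9924 thinned. They were 4273 of 25232 without the filter and 5984 of 16582 with all 12 libraries. Without a mouse, a genotype rests on 1 mouse, and calls over all genes moved there too, up as well as down. Nothing particular to the members is therefore read from these counts, and the cause of the changes was not tested.

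Log2 values of members kept their sign under every scaling. Signs reversed for Igf2 between genotypes in J2 (-0.72 to 1.35 without a mouse, lowest without DKO mouse 1) and in the J2 difference (-0.047 without the filter, -0.044 with the replicate block, -1.23 to 1.02 without a mouse, below 0 without DKO mouse 1 and, at -0.095, without control mouse 2). They also reversed for H19 in J2 against input in DKO (-0.62 without DKO mouse 1, 3.11 without DKO mouse 2). For Kcnq1ot1, leaving out a mouse gave -1.19 to 1.20 between genotypes in J2, -1.29 to 1.0009 in J2 against input in DKO (-0.036 with the replicate block) and -0.62 to 1.81 in the J2 difference, each lowest without DKO mouse 2, and -1.52 to 0.049 in K1 against input in DKO, highest without DKO mouse 1. Between genotypes the block pairs mice by number only: it ended the K1 call of Igf2 (adjusted p 0.102) and gave 1 for Kcnq1ot1 in K1 (0.0241). Pairings within a mouse changed no call other than those given beside Grb10, Meg3 and Kcnq1ot1. The calls of other imprinted genes in input fell from 11 to 1 with all 12 libraries, 7 thinned and 6 or 7 without a control mouse, those of the IGF pathway from 3 to 1 and those of imprint regulators from 9 to 3 with all 12 libraries.

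Without TMM the median of all genes moved from -0.00097 to -0.13 in input, from -0.02 to -0.39 in K1 between genotypes, and from -0.07 to -0.44 in J2 against input in control, and higher against lower calls went from 2841 and 2580 to 2138 and 2936 in input, from 794 and 812 to 446 and 918 in J2 and from 1695 and 1792 to 1148 and 3036 in K1. Against input they went from 2426 and 2321 to 1487 and 2805 for J2 in control, from 1947 and 2140 to 807 and 3018 in DKO, from 3134 and 3190 to 2143 and 3822 for K1 in control and from 2325 and 3334 to 1391 and 4843 in DKO. Of all genes, a fit of all 12 libraries called 1675 in place of 5421 in input and 5984 in place of 1606 in J2, and with the replicate block the J2 difference had 0 calls where the unblocked fit had 432, and the K1 difference 1912 against 870.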
